A study of Mus musculus with 6 samples.

Results

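The 10 genes described here encode interleukin-1 (IL-1) family cytokines, *Il1a*, *Il1b* and *Il18*, the antagonist *Il1rn*, the decoy receptor *Il1r2*, the receptor accessory protein *Il1rap*, and parts of the inflammasome, *Nlrp3*, *Pycard*, *Casp1* and *Casp4*. They were taken by name from the 55538 features of a table of raw unique molecular identifier (UMI) counts per gene and cell, and all 10 were found. Resident peritoneal cells of mice (C57BL/6 in the labels, C57BL/6J in the study's methods) of 8 to 12 weeks were the source of the cells, sequenced one by one in droplets with a 5′ end kit, from MerTK +/+ animals and from MerTK -/- animals, which carry the *MerKD* allele of the apoptotic cell receptor MerTK backcrossed to C57BL/6J. Cells were plated for 1 h, washed to remove those that did not adhere, and given a media change (control) or co-cultured with UV-treated apoptotic human Jurkat T cells (ACs) for 2 h or 6 h. Each genotype and condition gave 1 library, in which the cells of 3 mice were pooled, so all groups share the plating step and none has a replicate. Barcodes end in a library number from 1 to 6 that no label ties to a genotype or time, so values are given by library number, no condition is compared, and no p-value is printed.

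IL-1α and IL-1β bind the same receptor, which signals once the accessory protein encoded by *Il1rap* joins it. IL-1β and IL-18 are made as inactive precursors that caspase-1 cuts after a sensor such as NLRP3 and the adaptor ASC, the product of *Pycard*, have assembled an inflammasome, while caspase-11, the product of *Casp4*, senses bacterial lipopolysaccharide inside the cell. The IL-1 receptor antagonist, encoded by *Il1rn*, occupies the receptor without signalling, and the decoy receptor encoded by *Il1r2* binds the cytokine without passing a signal on. Peritoneal macrophages are commonly divided into large peritoneal macrophages (LPMs), which depend on the transcription factor GATA6, and small peritoneal macrophages (SPMs), which are monocyte-derived and depend on IRF4.

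Upstream sequence is shown for the 4 genes that the comparisons turn on, since *Il1a* and *Nlrp3* were higher and *Il1rn* was lower in macrophages with *Il1b* transcripts. *Il1a* (chr2:129299610-129309972, minus strand) and *Il1b* (chr2:129364570-129371139, minus strand) are neighbours with 54597 bases between them. *Il1rn* lies elsewhere on the chromosome (chr2:24336853-24351494, plus strand), and *Nlrp3* is at chr11:59541568-59566956 on the plus strand (GRCm38, GENCODE vM21). The 150 bases before each RefSeq start (GRCm38.p6) were searched on both strands for 4 short motifs, and capitals mark the matches. The TATA box was searched as TATAAA. The AP-1-type motif was TGANTCA. The core of PU.1-type sites was GAGGAA. The NF-κB-type motif was GGGNNTTCC.
Il1a, chr2:129309973-129310122, minus strand: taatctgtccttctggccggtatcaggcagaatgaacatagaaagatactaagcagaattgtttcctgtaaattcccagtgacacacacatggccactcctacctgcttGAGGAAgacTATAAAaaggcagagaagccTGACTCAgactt
Il1b, chr2:129371140-129371289, minus strand: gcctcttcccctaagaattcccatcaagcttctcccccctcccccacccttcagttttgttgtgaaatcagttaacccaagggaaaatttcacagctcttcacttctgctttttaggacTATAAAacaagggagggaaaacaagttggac
Nlrp3, first start, chr11:59541419-59541568, plus strand: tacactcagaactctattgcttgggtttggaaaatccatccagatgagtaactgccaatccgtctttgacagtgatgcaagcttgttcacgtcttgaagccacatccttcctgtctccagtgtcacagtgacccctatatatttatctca
Nlrp3, second start, chr11:59542536-59542685, plus strand: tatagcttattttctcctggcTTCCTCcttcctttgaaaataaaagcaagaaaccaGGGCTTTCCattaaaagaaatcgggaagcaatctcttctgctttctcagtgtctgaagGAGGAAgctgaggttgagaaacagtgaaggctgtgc
Il1rn, first start, chr2:24336710-24336859, plus strand: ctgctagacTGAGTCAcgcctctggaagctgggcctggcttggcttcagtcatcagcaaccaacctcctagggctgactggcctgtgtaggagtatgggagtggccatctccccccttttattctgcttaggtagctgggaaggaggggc
Il1rn, second start, chr2:24345141-24345290, plus strand: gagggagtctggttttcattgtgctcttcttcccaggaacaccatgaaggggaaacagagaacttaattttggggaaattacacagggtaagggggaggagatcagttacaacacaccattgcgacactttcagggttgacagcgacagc
Both *Il1a* and *Il1b* had a TATAAA, with its first base 32 and 31 bases before the start, a motif that 7.57% of 32851 windows of that length held. *Il1a* also had a GAGGAA, present in 14.5% of all windows, and a TGACTCA, a form of the AP-1-type motif, which 4.24% of windows held. A TGAGTCA, also of the AP-1 type, began 141 bases before the first start of *Il1rn*. The second *Nlrp3* window, inside the gene, held a GGGCTTTCC, a form of the NF-κB-type motif, which 3.27% of all windows held. It also had 2 PU.1-type cores, 1 on each strand. The second *Il1rn* window and the first *Nlrp3* window held none of the 4 motifs in these letters.

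The table held 7760 barcodes and 40172124 UMIs, with 4234786 to 10287079 UMIs per library, and 7665 cells were kept (at least 500 genes, a ratio of log10 genes to log10 UMIs of at least 0.8, at most 10% mitochondrial UMIs). Although the labels give the cells as peritoneal macrophages, 2773 kept cells (36.2%) met the macrophage gate (at least 2 UMIs of *Csf1r*, *Adgre1* and *Fcer1g* together, at most 2 of *Cd79a* and *Cd79b*, at most 1 of *Cd3d*, *Cd3e* and *Nkg7*), with 225 to 690 per library and a median of 4426 UMIs per cell. Another 2948 cells met the B cell gate (at least 4 UMIs of *Cd79a* and *Cd79b*), and 514 met the T/NK gate (at least 2 UMIs of *Cd3d*, *Cd3e* and *Nkg7*), with 18 of these in library 6. The 153 cells that met both lymphocyte gates, with a median of 10045 UMIs, were left out of both. In macrophages 9 of 10 macrophage markers were in at least 10% of cells. Of 8 neutrophil markers 1 was in at least 10% and 1, *Ly6g*, was at 0 UMIs. None of 7 mast cell and basophil markers or of 5 eosinophil markers was in at least 10%. *Cpa3*, *Fcer1a* and *Mcpt8* of the former and *Prg2* and *Epx* of the latter were at 0 UMIs. The other markers of these lists had UMIs. The T/NK gate also carried macrophage RNA, with *Lyz2* at 1914 CPM, a gene's UMIs over all UMIs of the gate times 1000000, and in 10.3% of its cells, so lymphocyte values below are for the 2847 B cells and 467 T/NK cells with at most 1 UMI of the macrophage gate genes unless stated. There were 28 barcode sequences found in 2 libraries each. Intervals are exact 95% intervals and cover counting error only, and since these UMIs count transcript 5′ ends, CPM is not scaled by transcript length.

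*Il1rn*, *Il1b*, *Il1a* and *Nlrp3* stood out in macrophages. Of the 8 members with a mean of at least 5 CPM over the 3 gates, these 4 were over 2-fold higher in macrophages than in both lymphocyte gates in each of the 6 libraries, against 3.23% of 9748 genes, with the lymphocyte gates taken whole. After thinning to 1500 UMIs per cell 2 members passed, *Il1b* and *Il1rn*, a count not set against the share of all genes under thinning. Of the 39997437 UMIs of all genes in kept cells, 13778746 were in macrophages. Macrophages held 84.6% of all *Il1rn* UMIs in kept cells, 89.4% of *Il1b*, 89.7% of *Il1a* and 93.4% of *Nlrp3*. The inflammasome adaptor and the caspases were spread across the classes, and macrophages held 48.6% of *Pycard*, 37.7% of *Casp1* and 32.2% of *Casp4* UMIs.

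*Il1a*, the alarmin of the pair, was at 734, 580, 1112, 363, 329 and 348 CPM in macrophages of libraries 1 to 6. Library 3 was the highest, and libraries 4, 5 and 6 lay close together at the low end. B cells had 3.05 to 21.4 CPM, and T/NK cells had 0 UMIs of *Il1a*, with an exact upper bound of 2.56 CPM. Macrophages were 48.3-fold above B cells (42.1 to 55.6). With 3 UMIs set for T/NK cells, macrophages were 278-fold above them. No library of either lymphocyte class reached the lowest macrophage library.

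*Il1b*, the inflammasome-processed cytokine, was at 1364, 1062, 1744, 742, 591 and 365 CPM in macrophages of libraries 1 to 6. Library 3 was again the highest and library 6 the lowest, a 4.77-fold range. In B cells its level was 6.10 to 23.2 CPM, 67.0-fold below macrophages in the pool (59.3 to 75.8). T/NK cells had 2 *Il1b* UMIs in all, in libraries 4 and 6. Before cells with more than 1 macrophage marker UMI were left out, T/NK cells of library 1 stood at 567 CPM.

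*Il18*, the cytokine that drives interferon-γ release from T and NK cells, was sparse, at 15.0, 15.6, 19.5, 2.94, 6.16 and 9.63 CPM in macrophages of libraries 1 to 6. It was higher in macrophages than in B cells in 4 of 6 libraries and lower in libraries 4 and 5, where B cells stood at 9.48 and 7.60 CPM. Over the pool of libraries, macrophages were 2.83-fold above B cells (2.12 to 3.82). Counting the pool of libraries in place of each library, 5 members were over 2-fold above both lymphocyte gates, the fifth being *Il18*, against 13.8% of genes.

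*Il1rn*, the receptor antagonist, had the highest count of the 10 genes in macrophages. It was at 1140, 1367, 3315, 1205, 1495 and 4147 CPM in macrophages of libraries 1 to 6, or 1777 CPM in the pool. Libraries 3 and 6 stood above the other 4, which lay between 1140 and 1495 CPM. In B cells it was 36.4-fold lower (34.0 to 39.1), at 26.1 to 91.3 CPM, with libraries 4 and 6 at the ends, and in T/NK cells 213-fold lower (122 to 413), with 12 UMIs in all.

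The receptor-side members were near the limit of detection. *Il1r2* gave 22 UMIs in macrophages, or 1.60 CPM (1.00 to 2.42), and 60 UMIs in B cells, or 3.41 CPM (2.60 to 4.39), with B cells higher in 5 of 6 libraries. *Il1rap* was at 3.34 to 14.1 CPM in macrophages of the 6 libraries and above B cells in each, by 2.75-fold in the pool (1.96 to 3.92). Its difference from T/NK cells was not detectable at this depth (2.30-fold, 0.96 to 7.23). The signalling receptor gene itself, *Il1r1*, was at 0.15 CPM in macrophages and 4.15 CPM in B cells.

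*Nlrp3*, the inflammasome sensor, was the most class-restricted member. Macrophages of libraries 1 to 6 had 274, 222, 216, 270, 224 and 135 CPM, with library 6 the lowest. B cells had 2 UMIs in 2847 cells, a ratio of 2112 with an interval from 584 to 17447. T/NK cells had 0 UMIs, with an exact upper bound of 2.56 CPM. With 3 UMIs set for T/NK cells, macrophages were 115-fold above them. In the lymphocyte gates taken whole, B cells stood at 4.38 CPM of *Nlrp3* and T/NK cells at 24.2 CPM. The T/NK cells of library 1 then stood at 72.6 CPM. *Pycard* differed far less, with 89.8, 109.5, 125, 52.7, 44.6 and 109 CPM in macrophages of libraries 1 to 6 and 17.5 to 62.7 CPM in B cells. The macrophage value was 1.71-fold above B cells in the pool (1.57 to 1.87) and higher in 5 of 6 libraries, but lower in library 4.

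The caspase genes, which are neighbours on chromosome 9 (*Casp1*, chr9:5298517-5307265, and *Casp4*, chr9:5308828-5336783, both plus strand), differed little between macrophages and B cells. *Casp1* was at 17.7, 16.1, 5.06, 10.9, 10.8 and 6.42 CPM in macrophages of libraries 1 to 6 and at 0.79 to 18.8 CPM in B cells, a pooled ratio of 1.03 (0.84 to 1.27). *Casp4* was at 40.3, 35.0, 10.1, 28.9, 28.5 and 34.7 CPM in macrophages, with library 3 alone at the low end. B cells stood at 36.9 CPM, 1.15-fold above macrophages (1.02 to 1.31) and 4.10-fold above T/NK cells (2.38 to 7.73). Library 6 alone had B cells at 86.5 CPM of *Casp4*, while the other 5 lay between 30.1 and 43.7.

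**Figure D1:**
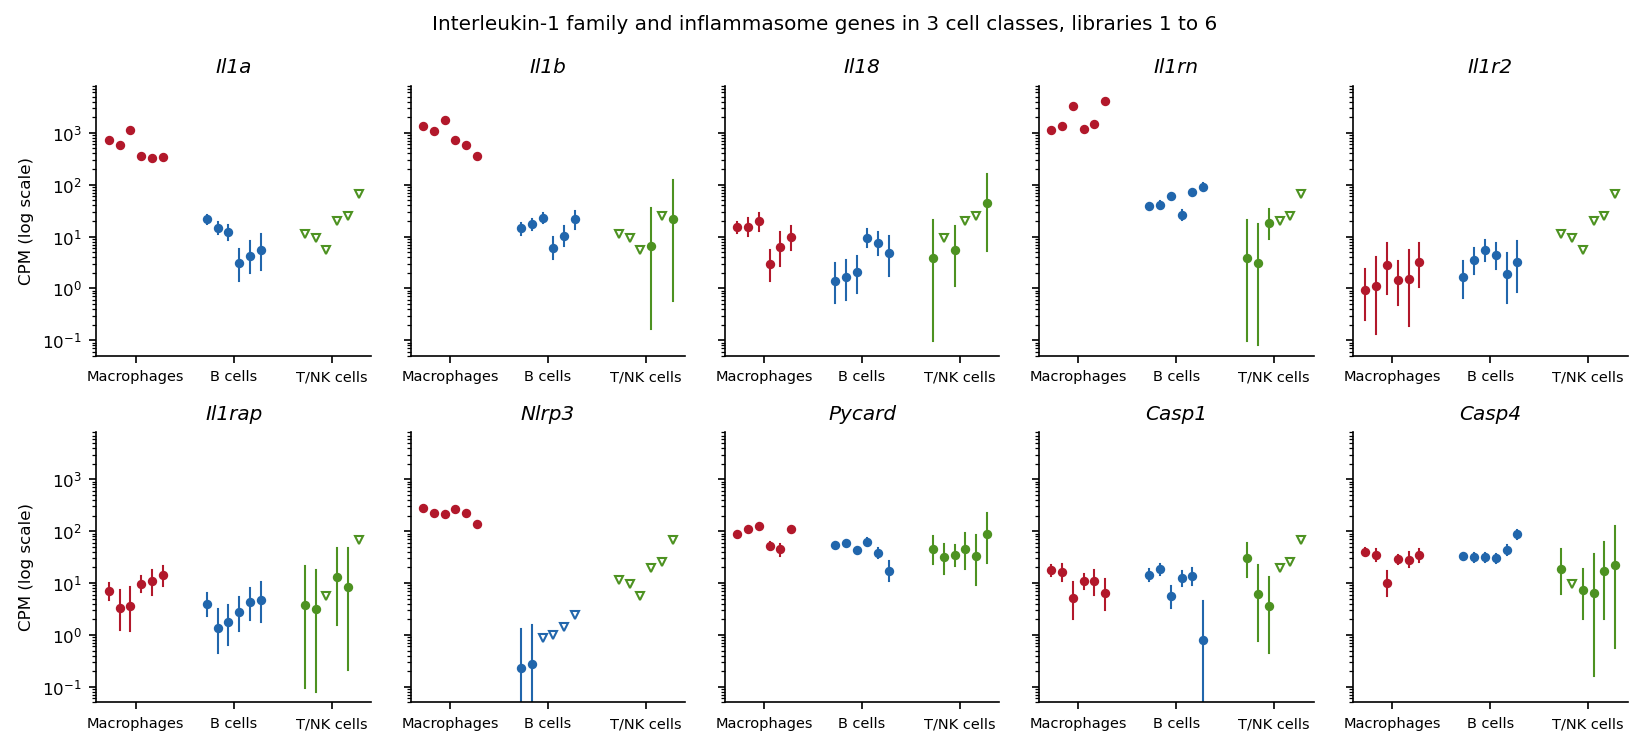
CPM on a log axis of the 10 genes in macrophages, B cells and T/NK cells (lymphocytes with at most 1 UMI of the macrophage gate genes), 1 point per library from 1 to 6 in order, with exact 95% Poisson intervals as bars that are clipped at the lower edge of the axis. Open triangles mark libraries with 0 UMIs, drawn at the value that 3 UMIs would give. Il1a, Il1b, Il1rn and Nlrp3 in macrophages lie above every library of both lymphocyte classes, with Nlrp3 between 135 and 274 CPM, while Casp1, Casp4 and Pycard overlap between classes.

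At an equal depth of 1500 UMIs per cell, which 2690 macrophages, 2809 B cells and 451 T/NK cells reached, *Il1rn* was found in 59.4% of macrophages (57.6 to 61.3), 3.60% of B cells and 0.22% of T/NK cells. Shares before thinning were 72.1%, 10.3% and 1.07%. *Il1b* was in 31.7% of macrophages and *Il1a* in 32.1%, against 0.85% and 0.82% of B cells. *Nlrp3* was in 24.1% of macrophages and in 1 of the B cells, or 0.036%. Most of the cytokine RNA lay in few cells, and the top 10% of macrophages held 64.9% of *Il1b* UMIs and 62.8% of *Il1a* UMIs, against 47.3% for *Il1rn*. This gap was not found within the LPM gate described below, where the top 10% held 58.1% of *Il1b*, 57.0% of *Il1a* and 59.2% of *Il1rn* UMIs. The highest cell had 44 *Il1b* UMIs of its 1500, while the median cell had 0. For the caspases the share was 1.97% (*Casp1*) and 4.57% (*Casp4*) of macrophages, close to the 2.60% and 4.52% of B cells.

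All 9 members with at least 5 CPM in macrophages differed over 2-fold between their highest and lowest library with intervals that did not meet, against 35.3% of 8710 genes. The libraries did not share 1 order. *Il1a*, *Il1b*, *Il18* and *Pycard* were highest in library 3, *Il1rn* and *Il1rap* in library 6, and *Nlrp3*, *Casp1* and *Casp4* in library 1. The mix of macrophages also differed between libraries. The share of macrophages in the SPM gate described next was 4.95, 5.14, 22.2, 4.49, 6.15 and 19.1% in libraries 1 to 6. It was highest in libraries 3 and 6, where *Il1rn* was highest. Within the LPM gate *Il1rn* was still highest in those libraries, at 664, 761, 1978, 764, 951 and 2800 CPM in libraries 1 to 6. Within that gate 6 of 9 members passed 2-fold (*Il1a*, *Il1b*, *Il18*, *Il1rn*, *Pycard* and *Casp4*), against 27.2% of genes. Genotype, time with ACs and library cannot be told apart here.

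Macrophages were split by their LPM and SPM markers. Under the gates set first (at least 2 UMIs of 10 LPM or 10 SPM markers and at most 1 of the other list), 48 SPM-gate and 573 LPM-gate cells were found, since *Fn1* of the first list was in 96.4% of macrophages and *Lyz1* of the second in 78.0%. In these gates no member passed 2-fold in the same direction in every library. Of all genes, 0.213% passed as higher in the SPM gate and 0.276% as higher in the LPM gate. The SPM gate held 3 to 18 cells per library, and the part of cell number in these counts was not tested. Narrower gates, chosen after these counts were seen, used *Gata6*, *Icam2*, *Timd4*, *Selp*, *Garnl3*, *Ltbp1* and *Alox15* for LPMs and *Ccr2*, *Irf4*, *Fcrls*, *Ear2*, *Mrc1* and *Clec10a* for SPMs, with at least 2 UMIs of one set and 0 of the other. They held 1334 LPM-gate cells with a median of 5444 UMIs and 251 SPM-gate cells with a median of 3907. Such gates are ranges and not types, and 263 LPM-gate and 70 SPM-gate cells sat at exactly 2 UMIs while 357 and 137 cells had 1. Of 8 T cell markers 1 was in at least 10% of SPM-gate cells, *Il7r* in 65.3%, with *Cd3d* at 0, and the list summed to 219 to 583 CPM there against 8.10 to 108 CPM in the LPM gate. Of 5 eosinophil markers 1 was, *Siglecf* in 27.1%, with *Ccr3*, *Il5ra*, *Prg2* and *Epx* at 0, and the list summed to 84.0 to 288 CPM against 0 to 4.20 CPM. Their part in the values below was not tested.

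*Il1rn* was higher in the SPM gate in every library. It stood at 3404, 4689, 3559, 3452, 5860 and 4620 CPM in SPM-gate cells of libraries 1 to 6, and at 664 to 2800 CPM in LPM-gate cells. No library of the LPM gate reached the lowest SPM-gate library, and the pooled ratio was 4.41 (4.25 to 4.58), from 1.65 in library 6 and 1.80 in library 3 to 6.16 in libraries 2 and 5. At least 1 *Il1rn* UMI was present in 94.8% of SPM-gate and 57.3% of LPM-gate cells, and at 1500 UMIs per cell the ratio was 4.40 (4.12 to 4.71). Under the first gates the ratio was 2.09 (1.87 to 2.34), and the SPM gate was higher in 2 of 6 libraries only.

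*Nlrp3* ran the other way and was the only member over 2-fold higher in the LPM gate in every library, against 1.18% of 8787 genes. LPM-gate cells had 309, 255, 440, 296, 256 and 241 CPM in libraries 1 to 6 and SPM-gate cells had 48.4, 11.9, 31.3, 84.0, 27.4 and 15.1 CPM, so the ranges did not overlap. The pooled ratio was 8.78-fold in favour of the LPM gate (6.40 to 12.4), and it was 7.18-fold at equal depth. Without library 6, *Il1a* passed as well. *Il1a* was also lower in the SPM gate in 6 of 6 libraries, by 2.48-fold in the pool (2.22 to 2.79), with 279 against 694 CPM. *Il1b* was lower there in 6 of 6 libraries too, by 1.61-fold (1.50 to 1.72), with a range of 1.36 in library 3 to 6.76 in library 4. Without library 3 the pooled *Il1b* value was 2.58-fold lower. Under the first gates *Il1b* was at 736 CPM in the SPM gate and 1169 CPM in the LPM gate. There the SPM gate was higher in libraries 3, 4 and 6 and lower in libraries 1, 2 and 5. *Il1a* (167 against 606 CPM) and *Nlrp3* (26.3 against 245 CPM, on 3 SPM-gate UMIs) were also lower in the first SPM gate. No member was over 2-fold higher in the narrower SPM gate in every library, a mark that 2.26% of genes passed. *Il1rn* missed it through libraries 3 and 6. The median log2 ratio of SPM to LPM gate was -0.31 over the 9 members tested and 0.13 over all 8787 genes.

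**Figure D2:**
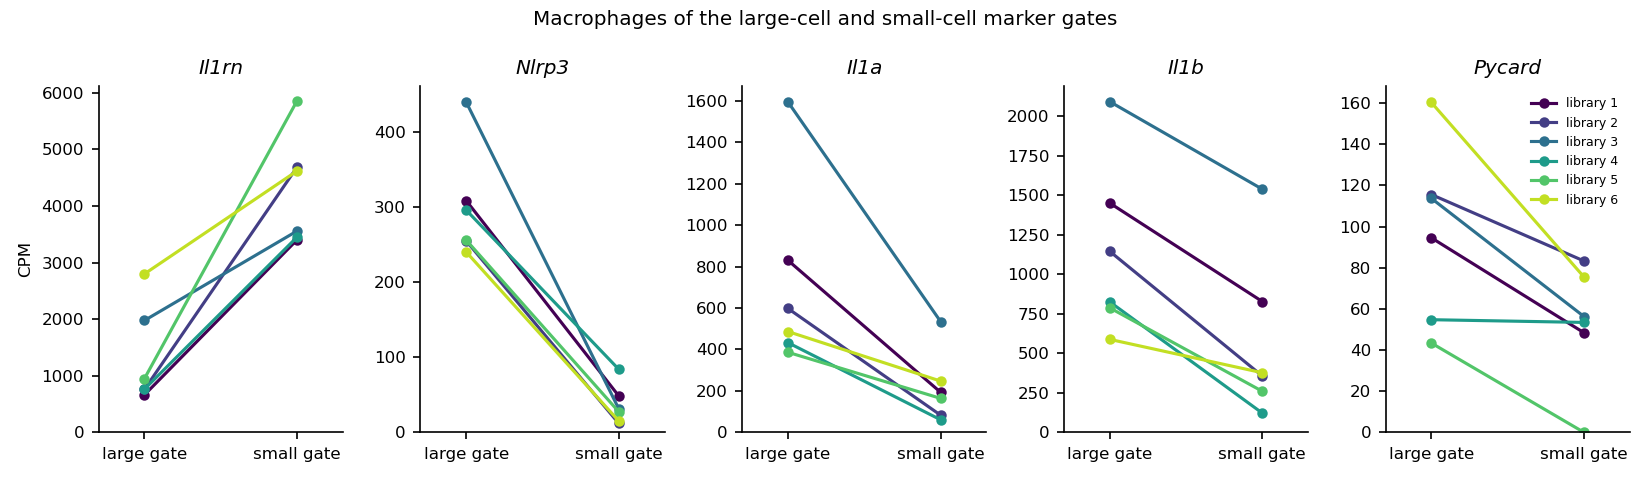
CPM of Il1rn, Nlrp3, Il1a, Il1b and Pycard in macrophages of the narrower LPM gate (large gate) and SPM gate (small gate), with 1 line per library and linear axes from 0. Every line of Il1rn goes up from the LPM to the SPM gate and every line of Nlrp3, Il1a, Il1b and Pycard goes down, with Nlrp3 at 11.9 to 84.0 CPM in the SPM gate.

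*Pycard* was 1.50-fold lower in the SPM gate (1.17 to 1.96), with 58.5 against 87.8 CPM, and lower in 6 of 6 libraries. *Casp1*, *Casp4*, *Il18* and *Il1rap* were higher in the SPM gate in some libraries and lower in others, and each pooled interval held 1. The decoy receptor gene *Il1r2* gave 10 UMIs in the SPM gate and 6 in the LPM gate, a ratio of 11.4 (3.75 to 38.1), found in 4 SPM-gate libraries and 2 LPM-gate libraries. Without library 1, which held 4 of the 6, the ratio was 25.2.

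The relation of the antagonist to the cytokine was then read cell by cell, at 1500 UMIs. Macrophages with at least 1 *Il1b* UMI (854 cells) had 1649 CPM of *Il1rn* and those without (1836 cells) had 2237 CPM, a ratio of 0.74 (0.70 to 0.77). *Il1rn* was found in 56.3% of cells with *Il1b* and in 60.9% of those without. The ratio was under 1 in 6 of 6 libraries, from 0.66 to 0.90. Within the LPM gate it was 0.79 (0.71 to 0.87), under 1 in 5 libraries and 1.23 in library 6, where 15 cells had *Il1b*. In the SPM gate the ratio of 0.92 had an interval that held 1 (0.82 to 1.04). The alarmin and the sensor went with *Il1b* instead. *Il1a* was 5.25-fold higher in cells with *Il1b* (4.77 to 5.79; 1126 against 215 CPM), and *Nlrp3* was 2.59-fold higher (2.26 to 2.97; 371 against 143 CPM), each in 6 of 6 libraries. These 2 of 8 members passed 2-fold, against 1.7% of 8698 genes, and no member was over 2-fold lower in cells with *Il1b*, against 5.19%.

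The 5 induced inflammatory genes set beside *Il1b* were all higher in cells that had it, in every library. *Tnf*, the tumour necrosis factor gene, was 4.51-fold higher (3.69 to 5.53), *Ptgs2*, which encodes the prostaglandin synthase COX-2, 3.81-fold (3.44 to 4.22), *Il6* 3.77-fold (3.27 to 4.35), and the chemokine genes *Cxcl1* 3.56-fold (3.19 to 3.98) and *Cxcl2* 2.52-fold (2.45 to 2.60). Split by *Tnf* instead, *Il1b* was 3.03-fold higher in the 278 macrophages with a *Tnf* UMI (2.81 to 3.27), and *Il1rn* was 1.16-fold higher (1.09 to 1.25).

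Cells were also grouped by their *Il1b* count, over all libraries together, whose own *Il1rn* and *Il1b* levels differ as given above. In the LPM gate *Il1rn* was 1053 CPM in cells with 0 *Il1b* UMIs, 943 CPM with 1 to 2, 798 CPM with 3 to 9 and 514 CPM (362 to 708) in the 48 cells with 10 or more. Intervals of neighbouring groups overlapped except between the last pair. The share of cells with *Il1rn* showed no order, at 40.3, 37.9, 43.5 and 39.6%. In the SPM gate *Il1rn* had no order either, at 4354, 3981 and 4250 CPM with 0, 1 to 2 and 3 to 9 *Il1b* UMIs. *Il1a* in the LPM gate was 228, 805, 1435 and 2083 CPM in the 4 groups. Pearson correlations per cell of *Il1b* and *Il1rn* on log2(1 + UMIs) were between -0.14 and -0.04 in macrophages of the 6 libraries, and between -0.19 and 0.05 in the LPM gate, with a median of -0.02, too weak in counts this sparse to count as a finding.

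**Figure D3:**
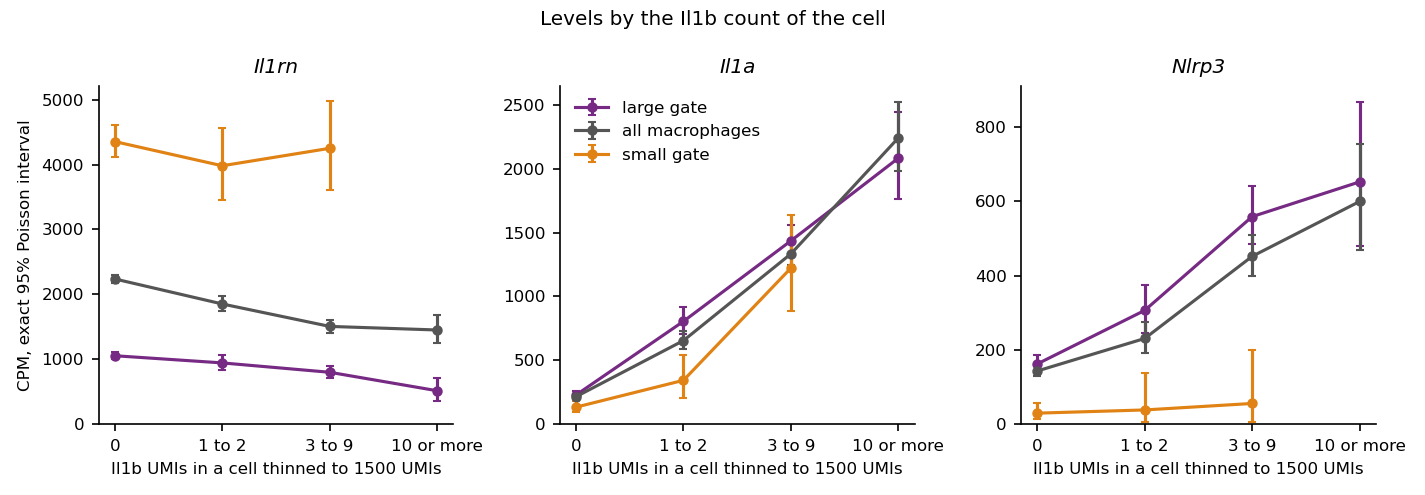
CPM of Il1rn, Il1a and Nlrp3 in macrophages thinned to 1500 UMIs, by the number of Il1b UMIs in the cell, for all macrophages, the narrower LPM gate (large gate) and the SPM gate (small gate), with exact 95% Poisson intervals on linear axes. Groups under 20 cells are not drawn. Il1rn in the LPM gate goes from 1053 to 514 CPM while Il1a goes from 228 to 2083 CPM, and Il1rn in the SPM gate has no order (4354, 3981 and 4250 CPM).

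Both transcripts were found together in 17.9% of macrophages at 1500 UMIs, *Il1b* without *Il1rn* in 13.9%, *Il1rn* without *Il1b* in 41.6%, and neither in 26.7%. Library 3 had the highest share with both (40.9%), and library 6 the highest share with *Il1rn* alone (71.4%). In the SPM gate 1.23% of cells had *Il1b* without *Il1rn*, against 22.0% in the LPM gate. Counted as UMIs, macrophages of libraries 1 to 6 had 0.84, 1.29, 1.90, 1.62, 2.53 and 11.3 *Il1rn* UMIs per *Il1b* UMI. Only library 1 had less *Il1rn* than *Il1b*, and library 6 stood apart from the rest. In the LPM gate the same ratio was 0.46, 0.66, 0.94, 0.92, 1.21 and 4.76, and in the SPM gate it was above 2 in every library, from 2.31 in library 3 to 28.3 (17.2 to 49.9) in library 4, where it rests on 16 *Il1b* UMIs.

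**Figure D4:**
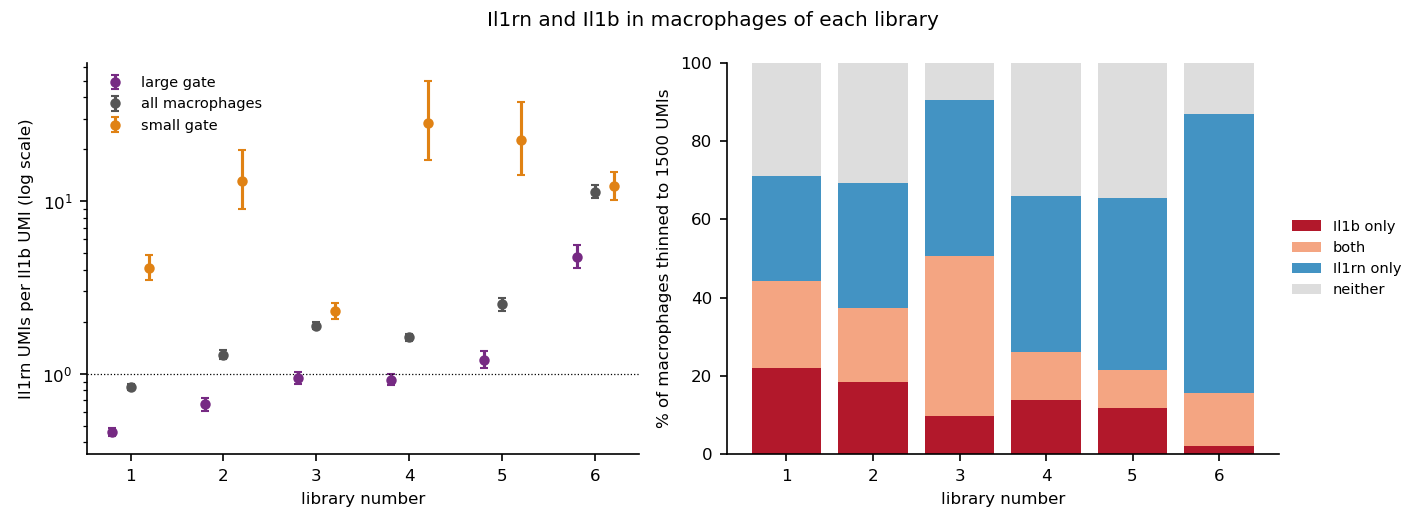
Left, Il1rn UMIs per Il1b UMI on a log axis for each library in all macrophages, the narrower LPM gate (large gate) and the SPM gate (small gate), with exact 95% intervals and a dotted line at 1. Right, the percent of macrophages thinned to 1500 UMIs with Il1b only, both, Il1rn only or neither. All macrophages run from 0.84 in library 1 to 11.3 in library 6, and the share with Il1rn only is highest in library 6, at 71.4%.

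Genes whose counts per macrophage were most like those of *Il1b* were *Il1a* (median Pearson r over the 6 libraries 0.44), *Cxcl2* (0.37), *Ptgs2* (0.37), *Ier3* (0.31), an immediate early response gene, and *Il6* (0.29), among 3564 other genes found in at least 5% of macrophages at 1500 UMIs. Those most like *Il1rn* were the actin genes *Actb* (0.42) and *Actg1* (0.37), the chemokine gene *Ccl9* (0.38), *Retnla* (0.32) and *Cstb* (0.31), which encodes a cathepsin inhibitor. *Retnla* was also on the SPM marker list of the first gates. The lowest r in a library ran from 0.059 (*Retnla*) to 0.16 (*Actb*) in the *Il1rn* group. In the *Il1b* group it ran from 0.21 (*Il6*) to 0.39 (*Il1a*). No gene was in both groups of 5, but lists this short out of 3564 genes would rarely share one, so no meaning is drawn from it. The cells within a library share 1 preparation and a fixed depth, and r is given as a description.

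Of 42 other names of the IL-1 and inflammasome pathway, 38 were rows of the table, and the other 4 are IL-36 genes listed there under older symbols. The 6 with the highest CPM in macrophages were led by *Ninj1* (879 CPM), which encodes the protein that ruptures the membrane of dying cells. Next came *Tnfaip3* (241 CPM), which encodes the NF-κB inhibitor A20, and *P2rx4* (98.3 CPM), an ATP-gated channel gene. They were followed by *Naip2* (97.7 CPM), a sensor gene for bacterial proteins, *Tollip* (87.7 CPM), and *Serpinb1a* (62.2 CPM), a protease inhibitor gene. Of the 29 with a mean of at least 5 CPM over the 3 classes, 9 were over 2-fold above both lymphocyte classes in the pool, against 14.8% of genes, with 4 of the 6 just named (*Ninj1*, *Tnfaip3*, *Naip2* and *Tollip*) among them. In the SPM against the LPM gate, 28 of the 38 were tested. Of these, 2 were over 2-fold higher in the LPM gate in every library, against 1.18% of 8787 genes. *Ninj1* was 1026 against 315 CPM (3.26-fold, 2.93 to 3.63) and *Serpinb1a* 83.9 against 6.11 CPM (13.7-fold, 6.63 to 34.3). None of the 28 was over 2-fold higher in the SPM gate in every library, against 2.26% of genes, so no meaning is drawn from it. *P2rx4* was 2.16-fold higher there in the pool (1.83 to 2.53).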

How the data were processed

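The authors mapped reads with Cell Ranger and its STAR aligner against human and mouse references together, and deposited raw UMI counts for 6 joined libraries, without normalization. The submitters' processing notes name Cell Ranger 2.2, Seurat 3.0 and GRCm38 (mm10). The annotation is not given in the sources used here. Free RNA was not removed. The members, gates and gene lists were chosen with earlier results of these data known.

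CPM was computed from the summed UMIs of each gate, with exact Poisson intervals. Ratios have exact conditional and shares exact Clopper-Pearson intervals, at 95% (scipy 1.17.1, numpy 2.4.6, pandas 2.3.3, Python 3.11.15). Where a gate or library had 0 UMIs, 3 UMIs stood in for the count in the 2-fold rule and where stated. A gene was tested with at least 5 CPM over the cells compared and passed at 2-fold. Cells were thinned to 1500 UMIs without replacement, which left out 313 cells. Scrublet (scanpy 1.11.5, expected rate 0.01) marked 47 of 7760 barcodes as doublets, and these were kept in. Genes named besides the members were the 6 pathway genes highest in macrophages, any over 2-fold different between LPM and SPM gates in each library, the 5 most like *Il1b* and the 5 most like *Il1rn*, 5 inflammatory genes, and gate markers. *Il1r1*, *Il33*, *Il18r1* and *Il18rap* were named after their values were seen. Alternatives changed the cell filter, gates, fold, thinning and doublets, and left out each library in turn. The call rules and intervals were tested on simulated Poisson counts, the same model that the intervals assume. Spread between cells was not simulated, so that test does not cover it. Figures were drawn with matplotlib 3.10.9.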

Additional observations from a re-analysis of the deposited data

Results flagged for a closer look

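Cells outside the 3 classes also held members of the family, above what a count of 0 allows. In the 1277 kept cells that met no gate, with a median of 2735 UMIs, *Il1rn* was at 590 CPM (567 to 613) and *Il1b* at 119 CPM (109 to 130), between the values of macrophages and of B cells. These cells enter none of the comparisons above. In the 153 cells that met both lymphocyte gates *Il1rn* was at 48.9 CPM (38.7 to 60.9), against 48.8 CPM in B cells. No control library was identified to set beside them.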

How the results depend on the processing

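The number of members above both lymphocyte gates in each library was 4, and 4 without each library in turn. It was 3 with at least 1000 genes per cell, 1 at 4-fold (*Il1rn*), 2 after thinning (*Il1b* and *Il1rn*) and 5 in the pool of libraries. The number spread between libraries was 9, with 3 at 4-fold (*Il1b*, *Il18* and *Il1rap*) and 7 to 9 without each library. Except where given above, the share of all genes under these settings is not printed. A changed count therefore does not show whether the members or all genes changed. The log2 ratio of *Il1rn* in macrophages with over without *Il1b*, -0.44, stayed below 0 throughout. It was -0.53 without thinning, -0.68 at 1000 UMIs, -0.33 with macrophages gated on *Csf1r* and *Adgre1*, -0.58 for at least 3 *Il1b* UMIs, -0.28 as the median over libraries, -0.35 in the LPM gate and -0.11 in the SPM gate, and from -0.59 to -0.23 without each library. Under the first SPM and LPM gates 0 members passed, 0 to 1 without each library (*Il1a* without library 3) and 1 under the narrower gates (*Nlrp3*), which were chosen after seeing the data. The log2 ratio of *Il1rn* between the first gates turned to -0.094 with at least 1000 genes per cell. Causes were not tested. Without each library in turn the narrower-gate ratio of *Il1rn* was 3.87 to 5.05 and *Nlrp3* was 7.22 to 10.9-fold lower in the SPM gate. Of 376 single-gene ratios under other settings 311 moved by less than their interval, 64 by more and 1 reversed. Depth limits *Il1r2*, *Il1rap*, *Il18* and *Casp1*, which had 22 to 174 UMIs in macrophages. No paired analysis was possible because library numbers are not matched to samples and each group has 1 library.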

Other observations

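*Il1rn* was found in a larger share of B cells than of T/NK cells, with intervals that did not meet. At 1500 UMIs per cell it was found in 3.60% of B cells (2.94 to 4.35), from 2.27% in library 4 to 7.60% in library 6, and in 0.22% of T/NK cells (0.0056 to 1.23). The macrophage transcript *Lyz2* was in 2.28% of the B cells and 2.00% of the T/NK cells. Counted as UMIs, B cells had 152 of *Il1rn* and 91 of *Lyz2*, while macrophages had 8272 and 60145.

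*Il33*, an IL-1 family alarmin gene, gave 128 UMIs in the 251 SPM-gate cells, or 112 CPM (93.2 to 133), and 0 UMIs in the 1334 LPM-gate cells. By the exact interval of the ratio it was at least 233.7-fold higher in the SPM gate. The UMIs lay in 24 cells, and library 2 had none. The genes of the IL-18 receptor, *Il18r1* and *Il18rap*, were at 104 and 31.2 CPM in T/NK cells against 0.94 and 1.67 CPM in macrophages. *Il18r1* was above macrophages in T/NK cells of every library, at 66.6 to 135 CPM.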
